A study of Mus musculus with 24 samples.

Results

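Transcripts of the cerebellum were compared with those of the hippocampus in wildtype (WT) mice. The members are the 8 arrays, of 24 in the series, that carried cerebellum or hippocampus RNA of WT animals 1 to 4, and every row of the table that named 1 gene, 19572 of 22206 rows. The series holds cerebral cortex, hippocampus and cerebellum of 4 WT mice and of 4 mice whose knockout (KO) of glutamine synthetase is restricted to the liver, the organ where this enzyme helps to clear ammonia from blood. The labels call the animals WT and name no treatment; the sources used here do not give their strain, age or sex, nor any floxed allele they may share with the KO animals. Each region of an animal gave 1 array of total RNA, and the titles give the same animal numbers in all regions, so that cerebellum and hippocampus were compared within an animal. Values are log2 levels as the authors deposited them. A difference is cerebellum minus hippocampus, averaged over the 4 animals. It is given with the standard error (SE) from limma, which draws each row's spread towards that of all rows. A gene was called when the adjusted p from limma was below 0.05 and the difference was at least 2-fold, that is 1 on the log2 scale. These are levels of dissected tissue, in which fewer cells of a type and less RNA per cell cannot be told apart.

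The cerebellum is built around a repeated circuit. Granule cells, the most numerous neurons of the brain, send parallel fibres to the dendrites of Purkinje cells, which are GABA-releasing and form the only output of the cerebellar cortex; stellate, basket, Golgi and unipolar brush cells act within the cortex, and Bergmann glia wrap the Purkinje synapses. The hippocampus is a forebrain structure in which glutamatergic granule cells of the dentate gyrus and pyramidal cells of the hippocampal fields form a chain of excitatory synapses, known for long-term potentiation and for its part in memory. Both hold astrocytes, oligodendrocytes, microglia and vessels.

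The promoters of 6 genes among the most different ones are shown here as the regulatory sequence next to the transcripts described below. Each runs from 250 bases before to 50 bases after a start site, in RefSeq's table of build GRCm38.p6, read 5′ to 3′ on the gene's own strand. Capitals mark matches on either strand to CAGATG or CAGCTG (E-boxes, bound by factors of the NeuroD and Atoh family among others), AGGTCA (the core site of nuclear receptors such as Rora) or TAATTA (a homeodomain core).
Gabra6 (chr11:42321023-42321322, minus strand, cerebellum): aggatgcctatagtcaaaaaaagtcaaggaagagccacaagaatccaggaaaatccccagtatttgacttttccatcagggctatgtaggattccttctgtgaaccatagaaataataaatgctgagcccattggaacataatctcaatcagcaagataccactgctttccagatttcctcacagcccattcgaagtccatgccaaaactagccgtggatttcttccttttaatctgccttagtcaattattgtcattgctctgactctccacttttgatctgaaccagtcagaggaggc
Pcp2 (chr8:3625498-3625797, minus strand, cerebellum, the first of 4 listed starts): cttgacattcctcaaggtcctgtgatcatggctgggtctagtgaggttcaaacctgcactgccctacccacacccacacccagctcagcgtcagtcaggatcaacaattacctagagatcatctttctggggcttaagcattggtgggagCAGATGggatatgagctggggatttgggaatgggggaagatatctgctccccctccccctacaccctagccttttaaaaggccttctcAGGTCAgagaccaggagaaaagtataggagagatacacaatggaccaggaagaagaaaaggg
Fat2 (chr11:55312208-55312507, minus strand, cerebellum): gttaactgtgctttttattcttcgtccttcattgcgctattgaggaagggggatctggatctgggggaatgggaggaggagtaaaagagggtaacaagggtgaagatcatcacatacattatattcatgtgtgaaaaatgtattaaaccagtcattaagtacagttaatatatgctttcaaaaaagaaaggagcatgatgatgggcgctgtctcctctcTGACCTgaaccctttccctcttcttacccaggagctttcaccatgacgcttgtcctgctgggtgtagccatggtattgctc
Arhgef33 (chr17:80307157-80307456, plus strand, cerebellum): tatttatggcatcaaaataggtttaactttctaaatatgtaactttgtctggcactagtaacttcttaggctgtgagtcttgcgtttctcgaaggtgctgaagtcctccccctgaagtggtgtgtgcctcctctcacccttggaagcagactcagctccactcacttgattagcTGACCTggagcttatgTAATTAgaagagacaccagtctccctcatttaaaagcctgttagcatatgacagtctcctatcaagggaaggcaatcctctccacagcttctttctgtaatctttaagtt
Gabra5 (chr7:57510010-57510309, minus strand, hippocampus): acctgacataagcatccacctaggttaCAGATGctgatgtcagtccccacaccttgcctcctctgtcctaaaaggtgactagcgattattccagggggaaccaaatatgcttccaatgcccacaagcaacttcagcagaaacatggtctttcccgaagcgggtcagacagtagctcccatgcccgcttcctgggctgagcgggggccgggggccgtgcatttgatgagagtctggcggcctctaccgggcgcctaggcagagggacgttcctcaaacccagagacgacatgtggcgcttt
Pde1a (chr2:80129363-80129662, minus strand, hippocampus, the first of 4 listed starts): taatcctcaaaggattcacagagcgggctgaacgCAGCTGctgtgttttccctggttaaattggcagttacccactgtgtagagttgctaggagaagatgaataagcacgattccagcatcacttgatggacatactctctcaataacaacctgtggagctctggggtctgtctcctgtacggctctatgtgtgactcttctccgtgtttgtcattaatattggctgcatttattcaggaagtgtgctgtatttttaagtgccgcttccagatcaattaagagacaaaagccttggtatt
Pcp2 held CAGATG and AGGTCA, Fat2 and Arhgef33 held AGGTCA as its reverse complement, Arhgef33 also TAATTA, Gabra5 held CAGATG and Pde1a CAGCTG, while none of these letters lay in the Gabra6 window. Such matches are common: of 15691 promoters of measured genes, 14.5% held CAGATG, 15.6% CAGCTG, 14.03% AGGTCA and 4.59% TAATTA. A match describes the letters only.

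The arrays of a region resembled each other closely. Pairs of hippocampus arrays correlated over all rows at 0.9934 to 0.9956, pairs of cerebellum arrays at 0.9916 to 0.9949, and pairs across the regions at 0.9447 to 0.9601. One array stood apart at the bright end: the highest value was 17.47 in the cerebellum of animal 2 and 18.54 in each of the other 3 cerebellum arrays. In 136 rows the mean of those 3 arrays was above 16. Over these rows the array of animal 2 lay a median of 0.587 below that mean. Hippocampus arrays lay at -0.11 to -0.16 by the same measure. The rows were chosen by the 3 arrays that also form the mean. Such a choice by itself tends to place the other arrays below 0, and the hippocampus is another region. Several bright cerebellar genes, such as Gabra6, Cbln3, Car8 and Cbln1, had their smallest difference in animal 2. Hippocampus arrays of animals 3 and 4 had higher levels of thalamus, striatum and choroid plexus genes than those of animals 1 and 2, and cerebellum arrays differed from each other in choroid plexus and thalamus genes; the values are given with those lists. The number of arrays limits the precision.

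Of the 19572 rows, 1940 (9.91%) were called, 784 (4.01%) higher and 1156 (5.91%) lower in the cerebellum. Counts of called genes in the lists below are to be read beside these shares. All 4 animals had the same sign in 1931 of them, and the cerebellum and hippocampus values did not overlap in 1923; without any threshold on size or p, 35.7% of all rows had values that did not overlap. The median difference over all rows was 0.03, with quartiles of -0.20 and 0.24. Without a minimum fold, 7511 rows had an adjusted p below 0.05, so most differences of this contrast were small. Among the called rows, 221 were at least 4-fold higher and 396 at least 4-fold lower, 33 and 58 passed 16-fold, and 8 and 10 passed 64-fold. The extremes were uneven: the largest excess in the cerebellum was 11.39 and the largest deficit -7.39. Calls were scarce among dim rows, with 0.613% called among the 4893 rows of lowest mean level and 17.8% among the 4893 brightest. Called genes spanned longer stretches of genome than the measured genes in general. Median spans in RefSeq were 50.3 kb for genes higher and 45.6 kb for genes lower in the cerebellum, against 17.8 kb for all measured genes. All measured genes include the dim rows in which calls were scarce. Spans were not compared at like level, so the part of level in this difference was not tested.

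**Figure D1:**
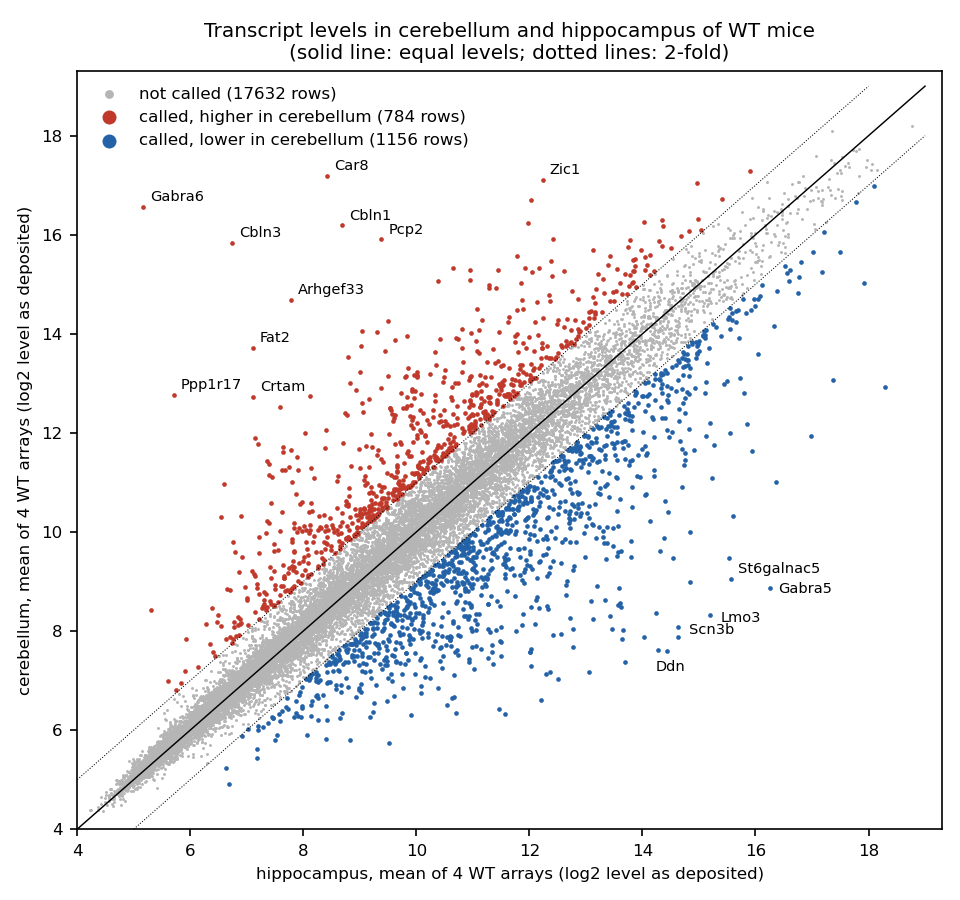
Mean log2 level in the 4 cerebellum arrays (vertical axis) against the 4 hippocampus arrays (horizontal axis) of WT mice, 1 point per row that names a gene. Red points are the 784 rows called higher and blue points the 1156 called lower in cerebellum; the solid line marks equal levels and the dotted lines 2-fold, and Gabra6 lies furthest from the line.

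Granule cell genes gave the largest differences. All 15 measured members of the granule cell list were called higher in the cerebellum, with a median of 3.86. Gabra6, the alpha subunit of the GABA-A receptor that marks mature cerebellar granule cells, read 16.94, 15.96, 16.64 and 16.68 in the cerebellum of animals 1 to 4 and 5.08, 5.02, 5.21 and 5.34 in the hippocampus. The hippocampus values lie near the low end of the scale in every animal, and cerebellum values did not come near them; the difference was 11.39 (SE 0.14, adjusted p = 3.33e-16). Cbln3, a secreted C1q-family protein of granule cells, read 15.84, 15.47, 15.81 and 16.21 against 6.69, 6.82, 6.73 and 6.72, a difference of 9.09 (SE 0.13). Its partner Cbln1, which bridges parallel fibres to the delta glutamate receptor of Purkinje cells, read 16.24, 15.78, 16.27 and 16.45 against 8.797, 9.36, 8.21 and 8.39. The hippocampus values of Cbln1 spread more widely than those of Cbln3 and the difference was 7.50 (SE 0.21). Fat2, an atypical cadherin of parallel fibres, differed by 6.60 (SE 0.13), with cerebellum values of 13.75, 13.51, 13.70 and 13.91. The zinc finger factors Zic1 and Zic2, which mark the granule lineage, differed by 4.87 and 4.22. Zic1 had an uneven hippocampus, at 11.65, 11.38, 13.24 and 12.67 in animals 1 to 4 against 17.41, 16.61, 17.11 and 17.31 in the cerebellum, so that animals 3 and 4 were the higher ones. In cerebral cortex of the same mice the mean levels were 5.27 for Gabra6, 6.89 for Cbln3 and 7.57 for Fat2, close to those of the hippocampus.

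**Figure D2:**
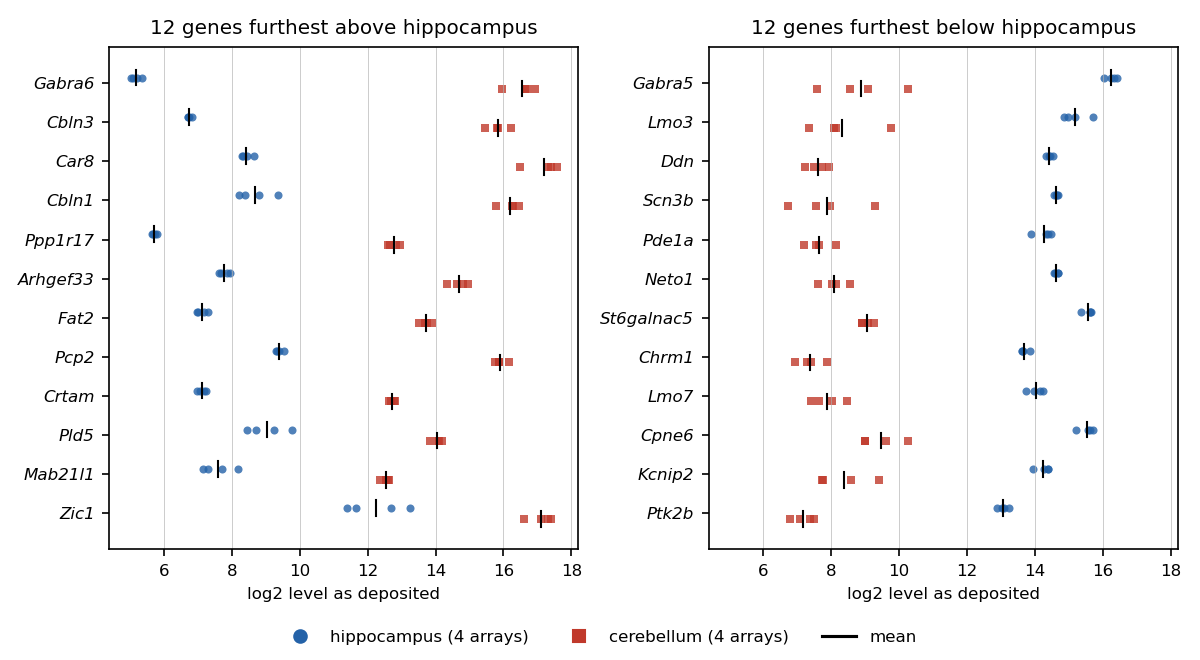
Log2 level in each array for the 12 genes furthest above (left) and the 12 furthest below hippocampus (right); circles are the 4 hippocampus arrays, squares the 4 cerebellum arrays and black strokes the means. No gene shown has overlapping regions, and the cerebellum values of Gabra5, Lmo3 and Scn3b spread over more than 2 log2 units.

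Purkinje cell genes followed. Of 17 measured members of the Purkinje list, 15 were called higher in the cerebellum and 0 lower, with a median of 2.82. Car8, a carbonic anhydrase-related protein that binds the inositol trisphosphate receptor, read 17.41, 16.49, 17.30 and 17.58 against 8.32, 8.28, 8.44 and 8.64 in the hippocampus, a difference of 8.77 (SE 0.14, adjusted p = 4.24e-15). Ppp1r17, the substrate of cyclic GMP-dependent protein kinase known as G-substrate, read 12.84, 12.66, 12.60 and 12.96 against 5.78, 5.72, 5.66 and 5.69. Both regions were tight for this gene, with ranges of 0.12 in the hippocampus and 0.36 in the cerebellum, and the difference was 7.06 (SE 0.11). Pcp2, also called L7, a regulator of G proteins whose promoter is widely used to drive Cre in Purkinje cells, read 15.86, 15.75, 16.15 and 15.86 against 9.54, 9.38, 9.29 and 9.32. It differed by 6.52 (SE 0.12). Slc1a6, the glutamate transporter of Purkinje spines, differed by 4.72, the phospholipase Plcb4 by 4.15 and the G protein regulator Rgs8 by 3.80. Foxp2 and Skor2, transcription factors that Purkinje cells express, were not called: they differed by 0.29 (adjusted p = 0.294) and 0.82, and Skor2 missed only the 2-fold minimum.

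Genes of the remaining cerebellar neurons and of Bergmann glia were mostly higher too. Among 9 genes of cerebellar interneurons and unipolar brush cells, 6 were higher and 2 lower. Eomes, a factor of unipolar brush cells, differed by 4.76, Tfap2b, a factor of the interneuron lineage, by 4.58, Slc6a5, the glycine transporter of Golgi cells, by 2.68, and Pax2 by 1.59. Pvalb, the calcium buffer of basket, stellate and Purkinje cells, read 15.44, 14.84, 15.40 and 15.49 in the cerebellum, against 10.42 to 11.55 in the hippocampus. The hippocampus has its own parvalbumin interneurons, and its arrays lay well above the low end of the scale, yet below every cerebellum array; the difference was 4.34. Grm2, a receptor of Golgi cells that is also strong in the dentate gyrus, went the other way at -1.85. Of 10 Bergmann glia genes, 7 were higher and 0 lower, with a median of 1.86. Gdf10, a growth factor of the bone morphogenetic protein family, read 14.21, 13.78, 13.96 and 14.16 against 9.41, 9.14, 9.30 and 9.35, so that the lowest cerebellum array exceeded the highest hippocampus array by 4.36. Gria4, the AMPA receptor subunit of Bergmann glia and granule cells, differed by 3.22, the protease inhibitor A2m by 2.90, Timp4 by 2.32 and the hedgehog receptor Ptch1 by 2.21. Fabp7 and Hopx, which astroglia of both regions share, differed by 0.30 (adjusted p = 0.119) and 0.57 and were not called.

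On the hippocampal side, pyramidal cell genes were lower in the cerebellum. Of 18 measured members, 14 were called lower and 1 higher, with a median of -2.18. Neurod6, a basic helix-loop-helix factor of forebrain excitatory neurons, read 13.58, 13.87, 13.49 and 12.93 in the hippocampus against 8.20, 7.92, 8.08 and 7.93 in the cerebellum, a difference of -5.43 (SE 0.14, adjusted p = 7.46e-13). The secreted protein Ccn3 differed by -5.06, the Dickkopf-family protein Dkk3 by -4.72, the copine Cpne4 by -4.45, the neuropeptide Y receptor Npy2r by -3.68 and Mpped1 by -3.58. The member that went the other way was Cacng5, an AMPA receptor auxiliary subunit, at 1.36; it is named here after its value was seen. Of 9 dentate granule cell genes, 6 were lower and 1 higher, with a median of -2.14. C1ql3 and C1ql2, secreted C1q-like proteins of mossy fibres, differed by -3.92 and -2.70, the cation channel Trpc6 by -2.46, the calcium-binding protein Cabp7 by -2.43 and desmoplakin (Dsp) by -2.14. Plk5, a polo-like kinase, was higher in the cerebellum by 1.58. Prox1, the factor that sets dentate granule identity, differed by only -0.28 (adjusted p = 0.131) and was not called.

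The genes furthest below the hippocampus came from several functional groups. Gabra5, the GABA-A subunit of tonic inhibition in pyramidal cells, read 16.43, 16.23, 16.33 and 16.03 in the hippocampus against 7.59, 9.07, 10.25 and 8.54 in the cerebellum. The hippocampus arrays agreed within 0.40 and the cerebellum arrays spread over 2.66, with animal 3 highest; the difference was -7.39 (SE 0.28, adjusted p = 3.12e-11). Lmo3, a LIM-only transcription cofactor, and Scn3b, a beta subunit of sodium channels, had the same order of animals in the cerebellum, at 7.33, 8.13, 9.75 and 8.09 for Lmo3 and 6.73, 7.96, 9.29 and 7.55 for Scn3b. Their differences were -6.86 (SE 0.29) and -6.75 (SE 0.26). Ddn, the postsynaptic protein dendrin, was even by comparison, at 14.54, 14.42, 14.44 and 14.32 against 7.49, 7.72, 7.24 and 7.94, a difference of -6.83 (SE 0.13). Neto1, an auxiliary subunit of kainate receptors, differed by -6.54, the sialyltransferase St6galnac5 by -6.52, Lmo7 by -6.15, the calcium-binding copine Cpne6 by -6.06 and the calcium-activated tyrosine kinase Ptk2b by -5.87. Cortex means were high for all of these, for example 14.27 for Gabra5, 14.25 for Lmo3, 13.41 for Ddn and 14.06 for Neto1. On the cerebellar side, the genes of the 12 largest differences that are not in the lists above were Arhgef33 at 6.91, the immunoglobulin-family surface protein Crtam at 5.62, Pld5, a member of the phospholipase D family, at 5.01, and Mab21l1, a developmental gene, at 4.94. Arhgef33 read 14.82, 14.33, 14.63 and 14.97 against 7.60, 7.86, 7.69 and 7.95, with the lowest cerebellum value again in animal 2.

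Markers of inhibitory neurons differed gene by gene. Of 19 forebrain interneuron genes, 9 were lower and 3 higher in the cerebellum, with a median of -0.91. The synthesising enzymes of GABA were not called: Gad1 differed by 0.38 and Gad2 by -0.12 (adjusted p = 0.496). The neuropeptide somatostatin (Sst) read 17.27, 16.88, 16.52 and 17.28 in the hippocampus against 10.61, 12.39, 13.67 and 11.08 in the cerebellum, so that the differences of animals 1 to 4 were -6.65, -4.49, -2.86 and -6.20. Animal 3 gave the smallest difference, and the mean was -5.05 (SE 0.41). Cholecystokinin (Cck) differed by -3.54, Lamp5 by -3.56 and Tac1, the substance P precursor, by -2.78, though the last was not called with a trended robust prior. Pvalb and Calb2, calcium-binding proteins that also mark cerebellar neurons, were higher, Calb2 by 3.86 with cerebellum values of 15.30, 14.80, 15.43 and 15.65 against 11.40, 10.16, 11.98 and 12.22. Calb2 hippocampus values were lowest in animal 2.

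Transcription factors separated hindbrain from forebrain. Of 29 hindbrain patterning factors, 18 were higher and 0 lower in the cerebellum, with a median of 1.37; of 20 forebrain patterning factors, 13 were lower and 0 higher, with a median of -1.81. Barhl2, a homeodomain factor, differed by 4.61, Zic5 by 3.76 and Pax6, a paired-box factor that granule cells keep into adulthood, by 3.67. En2, an engrailed factor that sets the midbrain and hindbrain territory, read 11.69, 11.44, 11.28 and 11.62 against 7.87, 8.19, 7.74 and 7.71, a difference of 3.63 (SE 0.13), while its relative En1 differed by 0.66 and was not called. Among Zic genes, Zic4 differed by 1.56, so that all 4 measured Zic genes were called higher. Lmx1b and Lmx1a, at 0.15 and 0.38, were not called. On the forebrain side, Tbr1, a T-box factor of glutamatergic neurons, differed by -5.46, Fezf2 by -4.73, Lhx2 by -4.40 and Bcl11b by -4.02. Neurod2, a relative of Neurod6 that cerebellar granule cells also express, differed by 0.03 (adjusted p = 0.868). Several of these factors also stand in the cell type lists: 10 of the 29 and 10 of the 20.

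**Figure D3:**
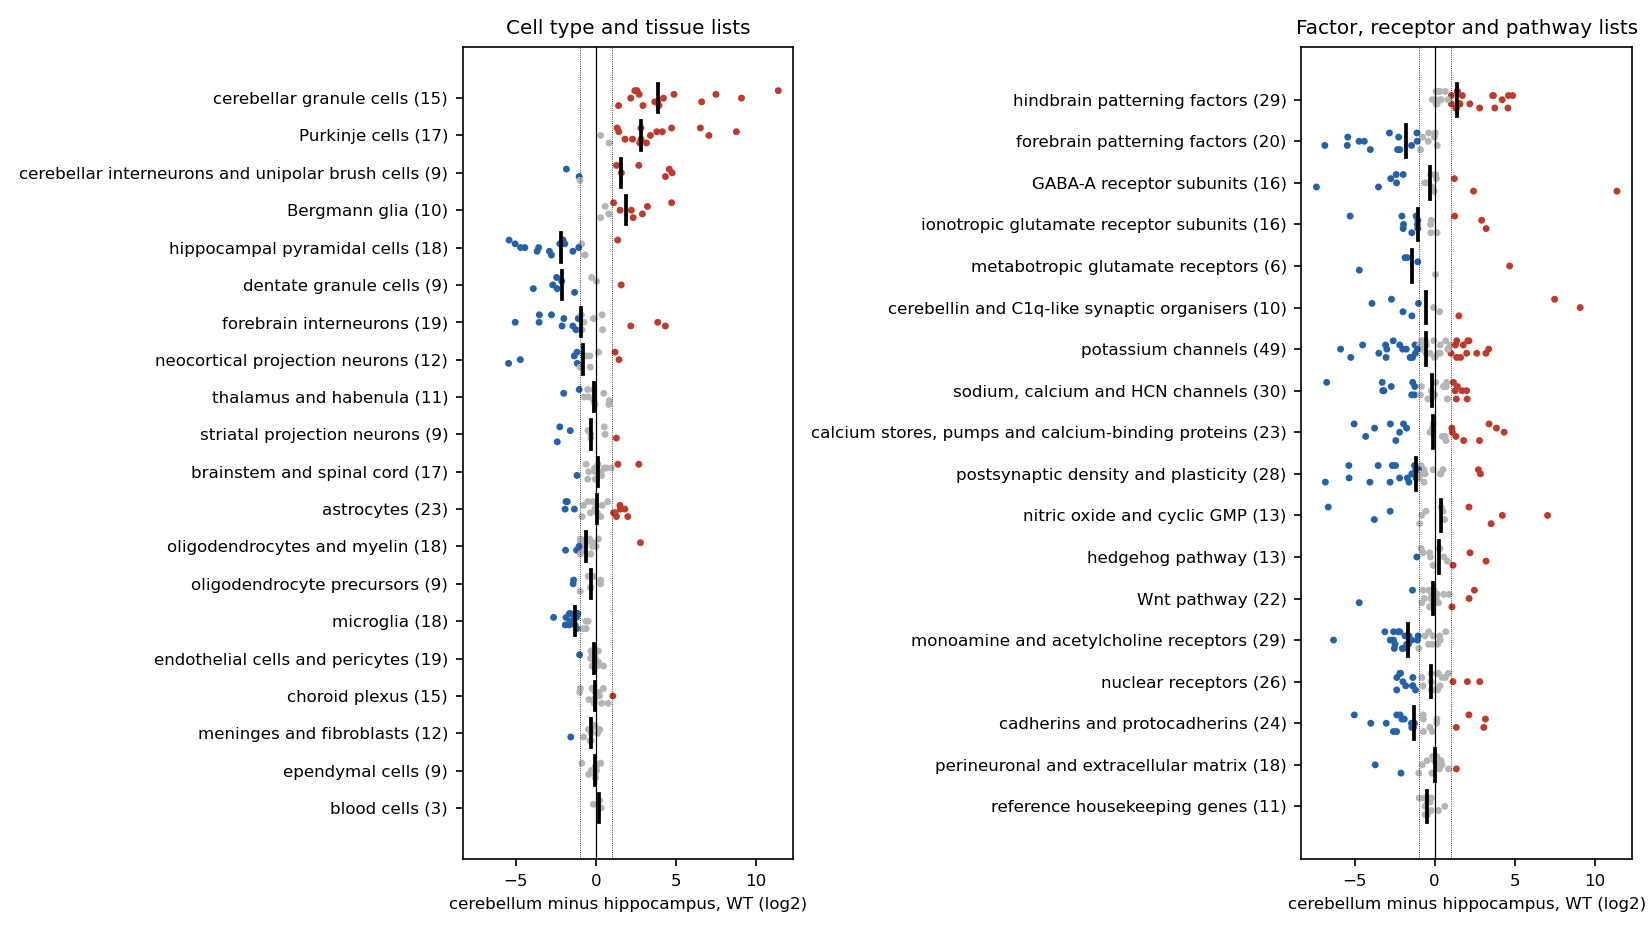
Cerebellum minus hippocampus (log2, horizontal axis) for each measured gene of the 38 lists, 1 row of points per list, with the number of measured genes in parentheses. Red and blue points are genes called higher and lower in the cerebellum, grey points were not called, black strokes are list medians and dotted lines mark 2-fold.

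GABA-A receptor subunits, which assemble around a chloride pore, differed in both directions. Of 16 measured subunit genes, 3 were higher and 6 lower. Beside Gabra6, the delta subunit Gabrd, its partner in extrasynaptic receptors, was higher by 2.43 (SE 0.16) with values of 10.89, 10.98, 10.86 and 11.35 against 8.398, 7.98, 9.11 and 8.89, and the beta subunit Gabrb2 by 1.23. Lower were Gabra5, the gamma subunit Gabrg3 at -3.51, Gabra3 at -2.74, Gabra2 at -2.41, Gabra4 at -2.38 and Gabrb1 at -1.97. The differences of Gabra3 in animals 1 to 4 were -3.37, -2.67, -1.36 and -3.59, least in animal 3. The remaining 7 subunits, the gamma subunit Gabrg1 among them, were not called and lay between -0.62 and 0.11. Within this family the alpha subunits thus held both the highest and the lowest difference among all rows tested.

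Glutamate receptors also held members on both sides. Of 16 ionotropic subunit genes, 9 were lower and 3 higher, with a median of -1.05, which was -0.65 with values above 16 set to 16, a cap that in this list touches the values of Gria1. Grin2b, the NMDA receptor subunit of forebrain synapses, read 15.60, 15.71, 15.56 and 15.53 in the hippocampus against 9.99, 10.25, 10.68 and 10.33 in the cerebellum, a difference of -5.29 (SE 0.13, adjusted p = 4.73e-13). Grin2c, the subunit that mature granule cells use, ran opposite, at 12.74, 12.46, 13.13 and 13.08 in the cerebellum and 9.92, 10.05, 10.14 and 9.55 in the hippocampus, a difference of 2.94 (SE 0.15). Grin2a differed by -1.43 and Grin3a by -1.05, while Grin2d at -0.25 and Grin3b at 0.15 were not called; without animal 1 the value of Grin3a was -0.90 and it was not called. Of the AMPA receptor subunits, Gria4 was higher, and Gria1, Gria2 and Gria3 lay just past 2-fold lower, at -1.16, -1.05 and -1.08. With values above 16 set to 16 the difference of Gria1 was -0.08, and Gria2 was not called without animal 2 (-0.94). The kainate receptor subunits Grik5 and Grik4 differed by -1.97 and -1.95, Grik2 was higher by 1.25, and Grik1 at -0.24 was not called. Grid1, a delta receptor that binds cerebellins, differed by -2.05. Of 6 measured metabotropic receptors, 4 were lower and 1 higher. Grm4, the presynaptic receptor of parallel fibres, read 15.58, 15.12, 15.31 and 15.31 against 10.46, 11.02, 10.95 and 10.17 and was higher by 4.68. Grm5, the postsynaptic receptor of forebrain neurons that couples to phospholipase C, read 13.76, 13.64, 13.41 and 13.53 in the hippocampus against 8.07, 9.26, 9.44 and 8.72 and differed by -4.71. The 2 receptors thus differed by about the same amount in opposite directions. Grm7 differed by -1.72 and Grm3 by -1.06, the latter not called without animal 2 (-0.92).

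**Figure D4:**
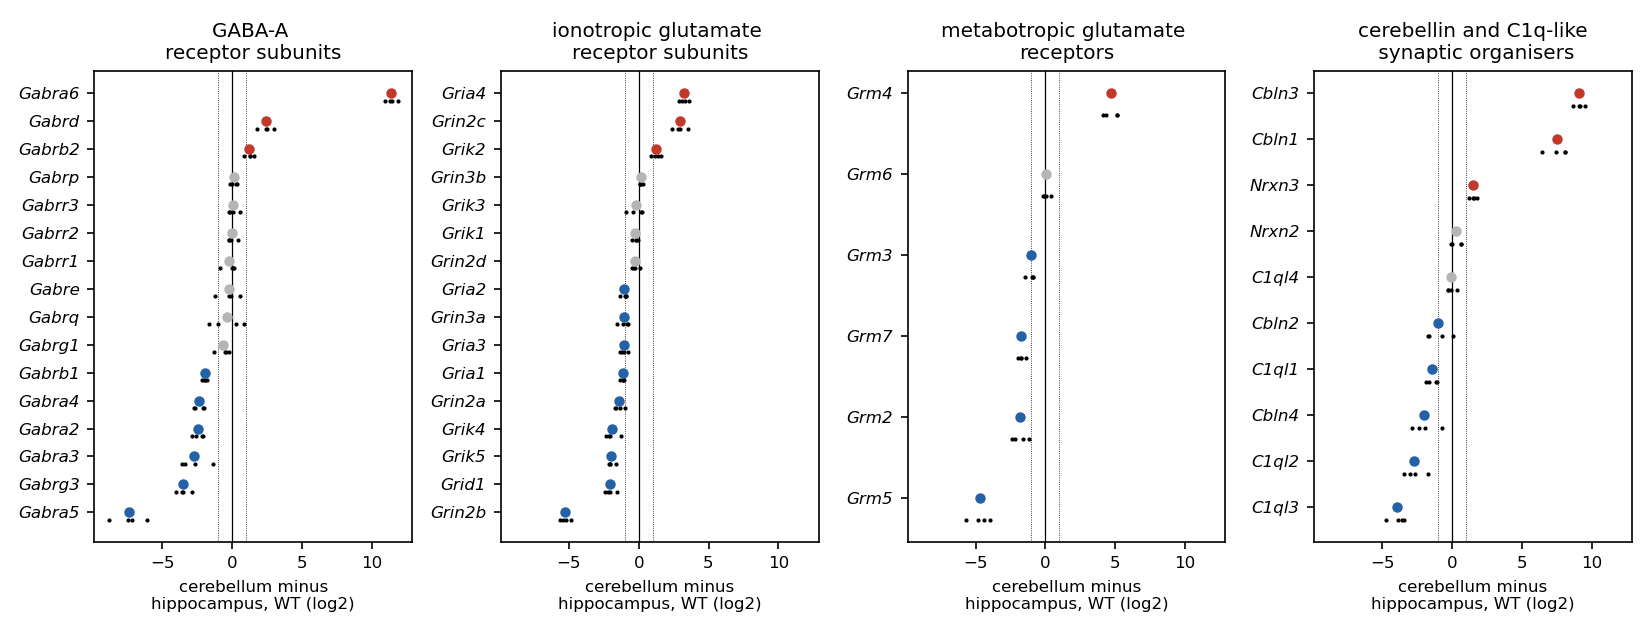
Cerebellum minus hippocampus (log2) for every measured GABA-A subunit, ionotropic and metabotropic glutamate receptor, and cerebellin or C1q-like gene. Large points are means with the SE as bars (mostly hidden by the points), small black points the 4 animals; red and blue were called higher and lower, grey were not called, and each family holds members on both sides of 0.

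The cerebellins and C1q-like proteins, secreted organisers that span the synaptic cleft, divided by member. Of 10 measured genes of this list, 3 were higher and 5 lower. Cbln1 and Cbln3 were far higher, whereas Cbln4 differed by -1.98, Cbln2 by -1.01, C1ql1 by -1.43 and C1ql3 and C1ql2 by the values given with the dentate genes. C1ql1 is known from climbing fibres, whose cell bodies lie in the inferior olive and outside the tissue compared here, and from oligodendrocyte precursors. Cbln2 was close to the minimum fold, and its differences in animals 1 to 4 were -1.67, -0.75, 0.06 and -1.69. It was not called without animal 1 (-0.79) or animal 4 (-0.79). In the KO mice 3 genes of the list were called higher and 2 lower. The KO differences of Cbln2, Cbln4 and C1ql1 were 0.04, -1.56 and -0.95, none of them called. Of the presynaptic neurexins that bind cerebellins, Nrxn3 was higher by 1.51 and Nrxn2 differed by 0.30, not called.

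Voltage-gated channels and their relatives also differed in both directions. Of 49 potassium channel genes, 12 were higher and 17 lower, with a median of -0.54. Kcnip2, an auxiliary subunit of A-type channels, read 14.37, 13.95, 14.27 and 14.40 in the hippocampus against 7.72, 8.57, 9.41 and 7.77 in the cerebellum, a difference of -5.88 (SE 0.23). The sodium-activated channel Kcnt2 differed by -5.24, the fast delayed rectifier Kcnc2 by -4.50 and the A-type channel Kcna4 by -3.49. Higher in the cerebellum were the inward rectifier Kcnj12 by 3.38 and the tandem-pore channel Kcnk10 by 3.20. Kcnip3 and Kcnab1 at -0.29 and 0.35 were not called. Of 30 sodium, calcium and HCN channel genes, 7 were higher and 9 lower. Next to Scn3b, the sodium channel Scn3a differed by -3.17, the calcium channel subunit Cacnb1 by -3.28 and the AMPA receptor auxiliary subunits Cacng3 and Cacng8 by -3.25 and -2.72. Cacna2d2, the auxiliary subunit of the P-type calcium channel of Purkinje cells, was higher by 2.03. Scn2a and Cacng7, at 0.72 and 0.76, were below the 2-fold minimum.

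Calcium buffers and sensors were divided evenly: of 23 genes, 8 were higher and 8 lower. Calb1, calbindin, a buffer of Purkinje cells and of dentate granule cells, read 15.44, 15.08, 15.19 and 15.60 against 12.22, 11.58, 11.70 and 12.20, a difference of 3.40. Together with Pvalb and Calb2, 3 classical buffers were thus higher in the cerebellum. The neuronal calcium sensors Hpca (hippocalcin) and Hpcal4 were lower, at -4.31 and -5.03, and Necab2 at -3.76. Vsnl1, a sensor of the same family as Hpca, differed by -0.11 (adjusted p = 0.628), with the opposite sign after quantile normalization, and the pump Atp2a2 by 0.49. Of the store channels measured, the ryanodine receptor Ryr1 at 0.71 and the inositol trisphosphate receptor Itpr2 at -0.14 were not called.

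Postsynaptic genes of excitatory synapses were mostly lower. Of 28 genes of the postsynaptic density and plasticity list, 16 were lower and 2 higher, with a median of -1.18. Camk2a, the alpha subunit of the calcium- and calmodulin-dependent kinase that long-term potentiation requires, read 18.32, 18.29, 18.24 and 18.34 in the hippocampus against 12.62, 12.83, 13.48 and 12.81 in the cerebellum. The hippocampus arrays agreed within 0.10, at the bright end of the scale, and the difference was -5.36 (SE 0.14). Its sister subunit Camk2b differed by -0.67 and was not called. Neurogranin (Nrgn), a calmodulin-binding protein of spines, differed by -5.35, with cerebellum values of 10.21, 11.26, 12.20 and 10.38, highest in animal 3. The AMPA receptor auxiliary proteins Cnih2 and Cnih3 differed by -4.05 and -3.53. Camk4, a nuclear kinase that granule cells hold in quantity, was higher by 2.86. The phosphatase subunit Ppp3ca, at -0.85, did not reach 2-fold.

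Nitric oxide and cyclic GMP signalling, a pathway of plasticity at parallel fibre synapses, showed large differences both ways. Of 13 genes, 4 were higher and 3 lower. The phosphodiesterases, which break down cyclic nucleotides, lay on both sides. Pde1a read 14.48, 14.32, 13.90 and 14.40 in the hippocampus against 7.19, 7.63, 8.13 and 7.56 in the cerebellum and differed by -6.65 (SE 0.18), Pde2a by -3.77 and Pde1b by -2.78, while Pde1c was higher by 4.23 and Pde5a by 3.53. Each of the 3 calmodulin-activated isoforms of the Pde1 family was therefore called, 1 higher and 2 lower. Gucy1b1, a subunit of the nitric oxide receptor, differed by -0.82, and Pde10a by 0.52; neither was called.

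Receptors for modulatory transmitters were lower as a list. Of 29 receptor genes for acetylcholine, serotonin, dopamine and noradrenaline, 19 were lower and 0 higher, with a median of -1.64. Chrm1, the muscarinic receptor of forebrain pyramidal cells, read 13.87, 13.64, 13.61 and 13.63 in the hippocampus against 7.39, 7.86, 7.27 and 6.94 in the cerebellum, a difference of -6.32 (SE 0.14, adjusted p = 1.26e-13). Chrm4 differed by -3.11 and Chrm3 by -2.53, so that each of these muscarinic receptors was lower. The serotonin receptors Htr2a and Htr4 differed by -2.77 and -2.57, and the nicotinic subunit Chrna4 by -2.57. Htr1b and the nicotinic subunit Chrnb2 had differences of 0.31 and 0.70 and were not called.

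Among 26 nuclear receptors, 3 were higher and 10 lower. Rora, whose loss in the staggerer mouse arrests Purkinje cells, read 14.85, 14.48, 14.54 and 14.89 against 11.56, 11.50, 13.004 and 11.42, with the hippocampus of animal 3 above its group, and differed by 2.82 (SE 0.23). Esrrg, an oestrogen-related receptor, was higher by 2.05. The mineralocorticoid receptor Nr3c2, known as strong in the hippocampus, differed by -2.36, the orphan receptors Nr2f2 and Nr2e1 by -2.37 and -2.18, and the thyroid hormone receptor Thrb by -2.14. Nr1d1, a receptor of the circadian clock, at 0.46, and Rarg at 0.22 were not called.

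Developmental signalling and adhesion genes also differed by member. Of 13 hedgehog pathway genes, 3 were higher and 1 lower; the co-receptors Boc and Cdon were higher by 3.21 and 1.15 along with Ptch1, and Disp2, a member of the dispatched family, differed by -1.12. Cdon was not called without animal 4 (0.85), nor Disp2 without animal 2 (-0.999, just inside 2-fold). Sufu and Hhip, inhibitors of the pathway, at 0.58 and -0.72, were not called. Of 22 Wnt pathway genes, 3 were higher and 2 lower: the receptors Fzd7 and Fzd1 were higher by 2.48 and 2.15 and the ligand Wnt7a by 1.08, while the ligand Wnt7b differed by -1.39 and Dkk3 by the value given above. The co-receptor Lrp6 at 0.24 was not called. Of 24 cadherins and protocadherins, 4 were higher and 13 lower, with a median of -1.29. Cdh9, an adhesion protein of mossy fibre synapses in the hippocampus, differed by -5.02, and the protocadherins Pcdh19, Pcdh8 and Pcdh10 by -3.99, -3.03 and -2.58. Cdh18 and Cdh7 were higher by 3.17 and 3.07, and Cdh2 at -0.72 was not called. Of 18 matrix genes, 1 was higher and 2 lower: tenascin C (Tnc) by 1.36, the proteoglycan neurocan (Ncan) by -3.72 and its link protein Hapln1 by -2.11. The list's shares were 5.56% higher and 11.1% lower, against 4.01% and 5.91% of all rows. Sparc, at 0.86, was below the 2-fold minimum, and passed it after quantile normalization (1.11) and without animals 2 and 3 (1.10).

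Microglia genes were lower in the cerebellum as a list. Of 18 measured members, 14 were called lower and 0 higher, against 5.91% of all rows called lower. All 18 had the same sign in the 4 animals. The share of such rows among all rows is not given here, but it is at least the 35.7% whose regions did not overlap. The median was -1.32. The mean level of the list ran from 9.92 to 10.05 in the hippocampus and from 8.51 to 8.72 in the cerebellum, so that the groups did not overlap. P2ry12, the purinergic receptor by which resting microglia sense ATP, read 12.17, 12.21, 12.38 and 12.59 against 9.30, 9.69, 9.99 and 9.76 and differed by -2.65 (SE 0.12). The growth factor receptor Csf1r differed by -1.92, the chemokine receptor Cx3cr1 by -1.66, Fcrls by -1.87, Gpr34 by -1.67 and the complement gene C1qb by -1.62. Tmem119 and Sall1, a surface protein and a factor that mark microglia, had smaller differences of -0.49 and -0.63, below 2-fold. The 11 measured reference housekeeping genes had a median of -0.46, with 0 called (Gapdh -0.29, which turned to 0.051 after quantile normalization, Ywhaz -0.65; 6 of the 11 lower at an adjusted p below 0.05 with no minimum fold), and the part of such a shift in the microglia values was not tested.

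Astrocyte genes did not move together. Of 23 measured members, 7 were higher and 4 lower, with a median of 0.04. The bicarbonate transporter Slc4a4 was higher by 1.99, the calcium-binding protein S100b by 1.81 and the acyltransferase Lcat by 1.53. The glutamate transporter Slc1a2 differed by -1.93, the filament protein Gfap by -1.87 and the glypican Gpc5 by -1.79. Aldoc, an aldolase of astrocytes and of a subset of Purkinje cells, read 18.54, 17.38, 18.27 and 18.16 in the cerebellum against 17.35, 17.37, 17.43 and 17.25 and differed by 0.74, not called; its lowest cerebellum value was that of animal 2. Ndrg2 differed by 0.08. Of 18 oligodendrocyte and myelin genes, 3 (16.7%) were lower and 1 (5.56%) higher, against 5.91% and 4.01% of all rows. The myelin-associated membrane protein Opalin differed by -1.90 and the lineage factors Olig1 and Sox10 by -1.21 and -1.06, while the protease Klk6, known from myelinated hindbrain and spinal tracts, was higher by 2.78. Mbp and Mal, genes of compact myelin, at -0.39 and -0.95, were not called. The count of lower genes was 5 without animal 4, and Mal passed 2-fold without animal 1 (-1.03) or animal 4 (-1.002). The mean level of this list was 12.55 in the hippocampus of animal 3 against 11.75, 11.78 and 12.13 in animals 1, 2 and 4. Of 9 oligodendrocyte precursor genes, C1ql1 and Gpr17 (at -1.40) were lower and 0 higher; Tnr, at -0.99, stood just short of the minimum and passed it without animal 3 (-1.09) or animal 4 (-1.07). Of 19 endothelial and pericyte genes, the lipid transporter Mfsd2a was lower, at -1.03, and it was not called without animal 1 (-0.91) or animal 3 (-0.99). That 1 gene is 5.26% of the list, no more than the 5.91% of all rows called lower. Vitronectin (Vtn), a pericyte gene, differed by -0.23. In the meninges list 1 of 12 genes (8.33%), decorin (Dcn), was called, at -1.58, near the 5.91% of all rows called lower. In the ependymal and blood lists, of 9 and 3 measured genes, 0 were called.

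Genes of neighbouring tissues varied from array to array. The 15 choroid plexus genes had a mean level of 8.27, 8.53, 9.56 and 9.75 in the hippocampus of animals 1 to 4 and of 9.14, 10.13, 8.01 and 8.85 in the cerebellum. Ttr, transthyretin, the most characteristic transcript of choroid plexus, read 13.60, 14.37, 17.40 and 17.69 in the hippocampus against 16.51, 17.09, 9.65 and 15.89 in the cerebellum, and its difference of -0.98 had an SE of 1.16 (adjusted p = 0.554). Kl, klotho, was at least 2-fold lower without passing the test, at -1.02 (adjusted p = 0.215), and Clic6 differed by 0.76. Leaving out 1 animal turned or called several of these: Ttr was 1.28 without animal 3, Clic6 was called at 1.37 without animal 3, and Kl at -2.08 without animal 2. Otx2 was the 1 member called, at 1.05 (adjusted p = 0.0195); without animal 1 or animal 2 it was 0.54 and 0.86 and not called. Without animals 3 and 4, 9 of the 15 genes were called higher on the 2 animals left; without animal 3, 3 were called higher, and without animal 2, 2 were called lower. The list therefore has no steady direction in these arrays. The 9 striatal genes had mean levels of 9.45, 9.42, 10.48 and 11.01 in the hippocampus, against 9.37 to 9.75 in the cerebellum. Penk, the enkephalin precursor of striatal and Golgi neurons, read 12.03, 11.41, 13.71 and 15.51 in the hippocampus against 14.55, 14.30, 14.43 and 14.49 in the cerebellum; its difference of 1.28 (adjusted p = 0.0285) was called with the animal as a block and not without the block, nor without animal 1 (0.86) or animal 2 (0.74). The dopamine receptors Drd1 and Drd2 and the G protein regulator Rgs9 were lower, at -2.26, -1.61 and -2.42, and the hippocampus values of Drd2 were 8.47, 8.11, 10.69 and 10.85, again high in animals 3 and 4, its KO difference was -0.01, and it was not called with all 24 arrays in the fit. Pde10a and Ppp1r1b were not called, with differences of 0.52 and 0.57.

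The 11 thalamus and habenula genes had mean levels of 9.11, 9.18, 10.06 and 10.15 in the hippocampus, against 8.93, 9.41, 9.73 and 9.32 in the cerebellum. Tac2 and Nwd2 were lower, at -2.02 and -1.05, the latter not without animal 4 (-0.73) and neither with a trended robust prior. Tcf7l2, the defining factor of the adult thalamus, read 12.11, 11.72, 15.34 and 13.15 in the hippocampus against 11.01, 13.43, 14.73 and 12.56 in the cerebellum, with animal 3 the highest in both, and differed by -0.15 (adjusted p = 0.759). The sign of Tcf7l2 turned without animal 1, 3 or 4 (0.17, 0.0069 and 0.0023). Prkcd, a kinase of thalamic neurons, differed by 0.48 and was called higher, at 1.20, without animal 3, when 2 genes of the list were called higher. Animal 3 of the cerebellum, which was highest for these genes, was also the array in which forebrain genes such as Gabra5, Lmo3, Scn3b, Sst and Nrgn were highest; the part of neighbouring tissue in those values was not tested. Of 17 brainstem and spinal cord genes, Slc6a5 and the catecholamine enzyme Th (at 1.37, not called with all 24 arrays in the fit) were higher and the neurofilament Nefl, at -1.18, lower; Nefh and Nefm at 0.53 and -0.45 were not called. The list's shares were 11.8% higher and 5.88% lower, against 4.01% and 5.91% of all rows. Without animal 3 the count of lower genes was 2. The mean level of this list was 8.25, 8.72, 8.90 and 8.55 in the cerebellum and 8.18 to 8.48 in the hippocampus. Of 12 neocortical projection neuron genes, which the hippocampal dissection could also carry, 5 were lower and 2 higher; beside Tbr1 and Fezf2, Rorb differed by -1.36, Scnn1a by -1.19, Bcl6 by 1.19 and Nxph4 by 1.44, while Tle4 at -0.99 was not called. Bcl6 was not called without animal 4 (0.92), and Tle4 was called without animal 3 (-1.04) or animal 4 (-1.04).

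**Figure D5:**
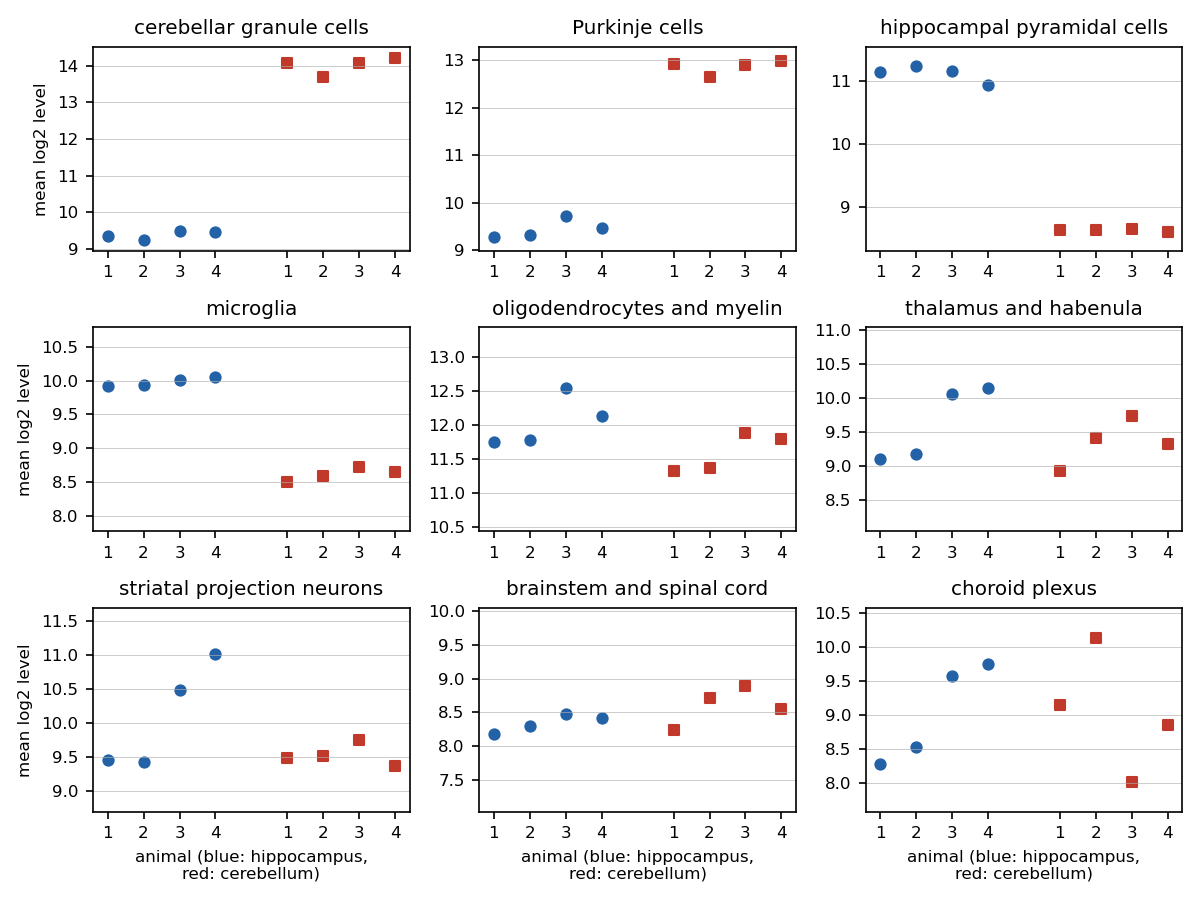
Mean log2 level of the measured genes of 9 lists (vertical axis, spanning at least 3 log2 units) in each array, with hippocampus as blue circles and cerebellum as red squares, by animal. Cerebellar, pyramidal and microglial lists hold the regions apart in every animal, whereas hippocampus arrays of animals 3 and 4 lie above those of animals 1 and 2 for thalamus, striatum and choroid plexus.

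The contrast was measured a second time in the 4 KO mice, which share no array with the WT mice. There 1593 rows (8.14%) were called, 687 higher and 906 lower. Of the 784 rows called higher in WT, 784 had a positive difference in KO and 593 were called; their median was 1.45 in WT and 1.33 in KO. Of the 1156 called lower, 1154 had a negative difference in KO and 854 were called, with medians of -1.58 and -1.35. These rows, and the leading genes below, were chosen by their WT values. Such a choice by itself tends to leave the KO values nearer to 0. The KO values of the leading genes were 10.97 for Gabra6, 8.57 for Cbln3, 8.31 for Car8, 6.49 for Pcp2, -5.51 for Gabra5, -5.11 for Lmo3, -6.94 for Ddn and -4.79 for Scn3b. Each of these leading genes except Ddn had a KO value nearer to 0 than its WT value. The shift was largest in Gabra5, Lmo3 and Scn3b, whose WT cerebellum arrays also spread most among these genes. Any link between shift and spread was not tested. The microglia list had a KO median of -1.03 with 10 of 18 genes called lower, and the monoamine and acetylcholine receptor list -1.31 with 15 of 29.

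A test of the difference itself, on the 8 within-animal differences, called 0 rows (0%) as different between WT and KO, and the smallest adjusted p from limma was 0.832. An unadjusted p below 0.05 was found in 1078 of 19572 rows, close to the 1 in 20 that chance alone gives. The smallest unadjusted p belonged to Sorcs1, a sorting receptor, whose difference was -0.73 in WT and 0.16 in KO. Chrna3, a nicotinic subunit strong in the habenula, differed by -0.07 in WT and 1.86 in KO, with WT animals at 0.80, -0.02, 0.55 and -1.60. The adenylyl cyclase Adcy5, which is strong in striatum, differed by -1.94 in WT and -1.16 in KO, and Prkar2b, a regulatory subunit of protein kinase A, by -1.99 and -0.87. The remaining genes of smallest p were Adgrf2, Egln3, Tpbg, Lix1, Hpx and 2310009B15Rik, whose differences between the genotypes (WT minus KO) ran from -1.28 in Tpbg to 0.77 in Adgrf2. With 4 animals per genotype these values give no call.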

How the data were processed

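The samples were 8 arrays of total RNA, 1 for each WT animal's cerebellum and hippocampus, with the 8 KO arrays beside them. The authors deposited log2 values, 1 per transcript cluster and array, made with RMA (background correction, normalization between arrays and summary of probes) per the submitters' processing notes. The log base was read from the values, which reach 18.84; the settings of RMA, the genome build and how values above 16 arose are not stated in the sources used. Per the labels' protocols the label is biotin and also Cy3, so the labelling is not settled. The table gives no detection call, so a level near the low end cannot be told from background. GEO's platform annotation named 1 gene for 19572 of 22206 rows (19505 symbols); 2634 rows without a gene were left out. For a symbol on several rows, a list used the row of highest mean.

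The region difference came from limma 3.58.1 under R 4.3.3 (lmFit, eBayes) with the animal as a replicate block, as paired by the animal numbers in the titles; residual deviations of the same WT animal's arrays correlated at 0.119, 0.175, 0.036 and 0.064. Those of the same KO animal's arrays correlated at -0.041, -0.147, -0.037 and 0.297. The consensus correlation within an animal over all 24 arrays was 0.00646. The pairing thus rests on the titles. The fit without the block called 1938 rows against 1940 in the paired fit. P-values are 2-sided and adjusted by Benjamini-Hochberg over all rows. P-values and SEs rest on the spread between these 4 animals as moderated by limma. Each row's own variance, on 3 degrees of freedom, was drawn towards that of all rows, with a prior of 11.2. For rows whose animals differ widely, such as Ttr, Sst, Penk and Gabra5, the SE is therefore smaller than the row alone would give. The procedure was tested on simulated data: of 200 changed rows in each of 3 runs on 19572 rows, 100% of changes of 1.5, 2, 3 and 4 were recovered, with false calls making up 0.332% of calls. All of these sizes lie above the minimum of 1 on the log2 scale. Recovery of changes below 1.5, nearer to that minimum, was not tested. The 100% and the 0.332% describe these runs alone, with 200 changed rows each. The share of false calls among the 1940 rows called in the arrays was not tested.

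The members and the 38 gene lists (593 of 654 genes measured) were chosen with earlier results of these data known; lists are described by counts and medians, with no set test. Named genes are the 12 most different each way with the same sign in 4 animals, up to 6 called and 2 uncalled members of each list, the receptor, cerebellin, calcium store, Zic and En families, and the 10 of smallest p between genotypes; unnamed transcripts were left out of the first group. Promoters come from RefSeq's table of GRCm38.p6; motif shares among the called genes are not given, since fewer than 80% of those genes had an entry.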

Additional observations from a re-analysis of the deposited data

Results flagged for a closer look

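In each region the 4 arrays of every named gene were searched for 1 array whose gap to the nearest of the others was above Dixon's 95% critical value. Of 478 groups of 4 tested for 239 genes, 21 had such an array; chance alone flags about 1 group in 20, so the number itself is not unusual. Values below are log2 levels of the array that stood apart, with the nearest other array in parentheses.

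In the cerebellum of animal 2, the array with low bright values, 7 genes stood low: Gapdh at 16.76 (17.55), Vsnl1 at 17.02 (17.92), Ndrg2 at 16.21 (16.93), Gabrb2 at 15.27 (15.85), Pvalb at 14.84 (15.40), Plk5 at 10.74 (11.34) and Grik1 at 9.17 (9.65). Of these, 3 lie above 16, and the part of the array's compressed range in the values was not tested.

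In the cerebellum of animal 3, Ttr stood far below the other arrays at 9.65 (15.89), A2m at 10.50 (10.83), Dsp at 6.68 (7.12) and Zic5 at 10.73 (11.24) were low, and Pcdh10 at 9.82 (8.97) and Rgs9 at 9.34 (8.56) were high. Gabra2 was low in the cerebellum of animal 4, at 10.86 (12.62).

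In the hippocampus of animal 3, Rora was high at 13.004 (11.56), and Cacng3 at 14.38 (15.05) and Hpcal4 at 13.20 (13.70) were low. Other single arrays of the hippocampus were Chrm1 in animal 1 at 13.87 (13.64), Kcnk10 in animal 2 at 10.59 (10.73), Lmx1b in animal 2 at 10.40 (10.24) and St6galnac5 in animal 4 at 15.37 (15.62); these gaps are small beside the differences between the regions for Chrm1, Kcnk10 and St6galnac5.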

How the results depend on the processing

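The count of 1940 called rows was 1938 without the replicate block, 1924 with all 24 arrays, 1931 after median centring, 1934 after quantile normalization, 1910 without the dimmest 25% of rows, 1917 with values capped at 16 and 1903 with a trended robust prior. It ran from 1851 to 2065 with 1 animal left out, and was 2210 without animals 2 and 3 and 2053 without animals 3 and 4, both pairs chosen after seeing the data. Higher and lower calls, 784 and 1156 in the main fit, were 854 and 1077 after median centring and 829 and 1105 after quantile normalization. They were 868 and 1141 without animal 2, and 730 and 1154 without animal 4. Of the main calls, 1861 were kept after median centring and 1813 to 1898 with 1 animal left out. A test against a 2-fold difference (limma treat) called 1089 rows, 410 higher and 679 lower, and dropping the fold minimum gave 7511, 3810 higher and 3701 lower; both follow from the threshold itself. The calls kept their sign in every setting in which they were measured, 1940 of 1940 or, without the dimmest 25% of rows, 1910 of 1910. The KO count was 1589 without the block and 1418 to 1858 with 1 animal left out; the difference between genotypes stayed at 0 calls in each setting run. Of the 239 named genes, 177 were called, and 1 call, that of Penk, was lost without the block.

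The sign turned only in genes that were not called. After quantile normalization Vsnl1 was 0.31 and Gapdh 0.051. With 1 animal left out the values ran from -0.27 to 0.13 for Tpbg, -0.76 to 0.17 for Tcf7l2, -0.23 to 0.15 for Vsnl1, -0.023 to 0.57 for Foxp2, -2.28 to 1.28 for Ttr, -0.17 to 0.0079 for Gad2 and -0.36 to 0.44 for Chrna3. Without animals 2 and 3 the values were 0.11 for Vsnl1, -0.27 for Foxp2 and 0.56 for Ttr, and without animals 3 and 4 they were 0.39 for Chrna3, 2.81 for Ttr, 0.017 for Gad2, 1.03 for Kl, -0.053 for Ndrg2 and 0.30 for Tcf7l2. The cause was not tested. No signal over background is given in the table, which limits what can be said of dim rows.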

Other observations

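Pituitary hormone transcripts, which no list above holds and which were chosen after their values were seen, appeared unevenly in the hippocampus arrays. Growth hormone (Gh) read 11.09, 8.67, 14.49 and 8.09 in the hippocampus of animals 1 to 4, and prolactin (Prl) 8.08, 6.91, 10.26 and 7.29. Both were highest in animal 3. In the cerebellum Gh read 9.02, 9.13, 10.86 and 7.98 and Prl 7.31, 7.57, 7.53 and 7.06.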
